A study of Homo sapiens with 8 samples.

Results

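Death receptors and the proteins that act directly beneath them were examined in PNT2 cells, an immortalized line of human prostatic epithelium, after depletion of the splicing regulators ESRP1 and ESRP2. The set holds 10 genes of the 14272 with a row of their own: the receptor gene FAS, the TRAIL receptor genes TNFRSF10A, TNFRSF10B, TNFRSF10C and TNFRSF10D, the adaptor FADD, the initiator caspases CASP8 and CASP10, their inhibitor CFLAR and the ligand TNFSF10. Members were taken from gene-level rows annotated to exactly 1 gene symbol, which gave 11 rows, since TNFRSF10C had 2. The members were listed by name, with earlier results of these data known, so no test was run over the list.

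The treated group, called siESRP (4 samples), received short interfering RNAs (siRNA) that target ESRP1 and ESRP2. The control group, called siGFP (4 samples), received an siRNA to GFP, a jellyfish protein that the cells do not make. Both groups were PNT2 cells in the same medium, so they share the line and a transfection. RNA of each sample was hybridized to 1 Affymetrix exon array, and the deposited table gives 1 intensity per gene-level row. Nothing in the labels states that replicates were separate cultures, and the p-values therefore reflect the spread among these arrays alone, part of which may be technical.

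Death receptors are membrane proteins whose cytoplasmic death domain recruits FADD once a ligand has clustered them. FADD then gathers procaspase-8 and procaspase-10, which activate each other and start the caspase cascade, while cFLIP, the product of CFLAR, joins the same complex and limits or redirects it. FAS binds FAS ligand. The products of TNFRSF10A (DR4) and TNFRSF10B (DR5) carry TRAIL's death signal, whereas those of TNFRSF10C (DcR1) and TNFRSF10D (DcR2) bind TRAIL without a complete death domain and are known as decoys. FAS and the TRAIL receptor genes are reported to respond to p53, the stress-activated transcription factor.

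The RefSeq promoter table (GRCh38.p14) was matched by 5 members, FAS, FADD, CASP8, CFLAR and TNFSF10, with 12 windows in all, of which 3 belong to FAS. Among the 250 bases before each listed start, the 10-base p53 consensus, which reads the same on both strands, occurred in 2 of the 12 windows, 1 of FAS and 1 of CASP8. It occurs in 5.57% of all 35116 windows of that length. The FAS window is shown because a p53-responsive element is reported in the first intron of this gene, which had the largest increase among the members with a complete death domain. It covers chr10:88991181-88991430 on the plus strand, and capitals mark the 20 bases closest to a gapless pair of p53 consensus decamers.

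FAS window: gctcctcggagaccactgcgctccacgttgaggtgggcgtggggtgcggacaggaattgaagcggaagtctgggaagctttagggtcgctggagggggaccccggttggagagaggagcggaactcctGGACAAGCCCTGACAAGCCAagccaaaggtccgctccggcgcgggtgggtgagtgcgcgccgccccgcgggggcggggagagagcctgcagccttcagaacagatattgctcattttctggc

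The 20 capital bases differ from the pair of consensus decamers at 2 positions, the 11th and the 20th counted from the 5′ end, so the first decamer matches in full. A pair with at most 3 mismatches was found in 2 of the 12 windows, this one and 1 of CFLAR, and in 4.36% of all windows. GAAANNGAAA, a pattern of interferon-responsive promoters searched on both strands, was found in 1 of the 12, that of TNFSF10, and in 3.02% of all windows. The TRAIL receptor genes and CASP10 had no window, so nothing is shown for them. A match of letters describes the window and shows neither binding nor a cause, and p53 activity in these cells was not tested.

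Both siRNA targets fell. The ESRP1 row was 76.2% lower in siESRP than in siGFP, and the row that ESRP2 shares with NFATC3 was 72.1% lower (limma adjusted p = 6.58e-05 and 0.000336). Array medians of the deposited values lay between 233 and 286, and the number of arrays limits the precision. Of 6 epithelial markers 5 had a row, and all 5 were above 100 on every array, with sums of 20992 to 22136 in siGFP and 23981 to 24852 in siESRP. The 3 measured leukocyte markers of 4 stayed under 50 on every array, with sums of 26.9 to 48.0 and 39.6 to 54.4. The 3 endothelial markers summed to 284 to 339 and 361 to 448, and the 4 measured fibroblast markers of 5 to 408 to 473 and 322 to 379. The largest part of these sums came from CDH5 (means 241 in siGFP and 324 in siESRP) and COL1A1 (252 and 182). The endothelial marker VWF averaged 53.5 and 54.1. PECAM1 (endothelial) and DCN (fibroblast) stayed under 50 on every array, like the leukocyte markers. No measured marker of any type was at 0. The part of these marker shifts in the results was not tested.

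Every receptor gene in the set rose in siESRP, TNFRSF10C in 1 of its 2 rows, and nothing in the set fell. The FAS row rose 2.85-fold, the death-signalling TRAIL receptors TNFRSF10A and TNFRSF10B rose 2.00-fold and 1.69-fold, and the decoy genes TNFRSF10C and TNFRSF10D rose 3.90-fold and 1.42-fold. CFLAR, the inhibitor, rose 1.27-fold. The adaptor FADD, the ligand TNFSF10, CASP8 and CASP10 did not pass the test. In counts, 6 of 11 member rows rose (54.5%), against 10.9% of all 18495 rows (limma, adjusted p under 0.05), 0 fell, against 9.31%, and 5 did not pass. At least 1.5-fold higher were 4 of the 11, against 4.68% of all rows. The 2 groups of arrays did not overlap in 6 of the 11, all higher in siESRP, against 12.6% of all rows that were separated and higher, and 24.7% separated in either direction. The median log2 difference was 0.50 over the member rows and −0.02 over all rows. RNA came from bulk cultures, in which a change in the share of expressing cells and a change in RNA per cell cannot be told apart.

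**Figure D1:**
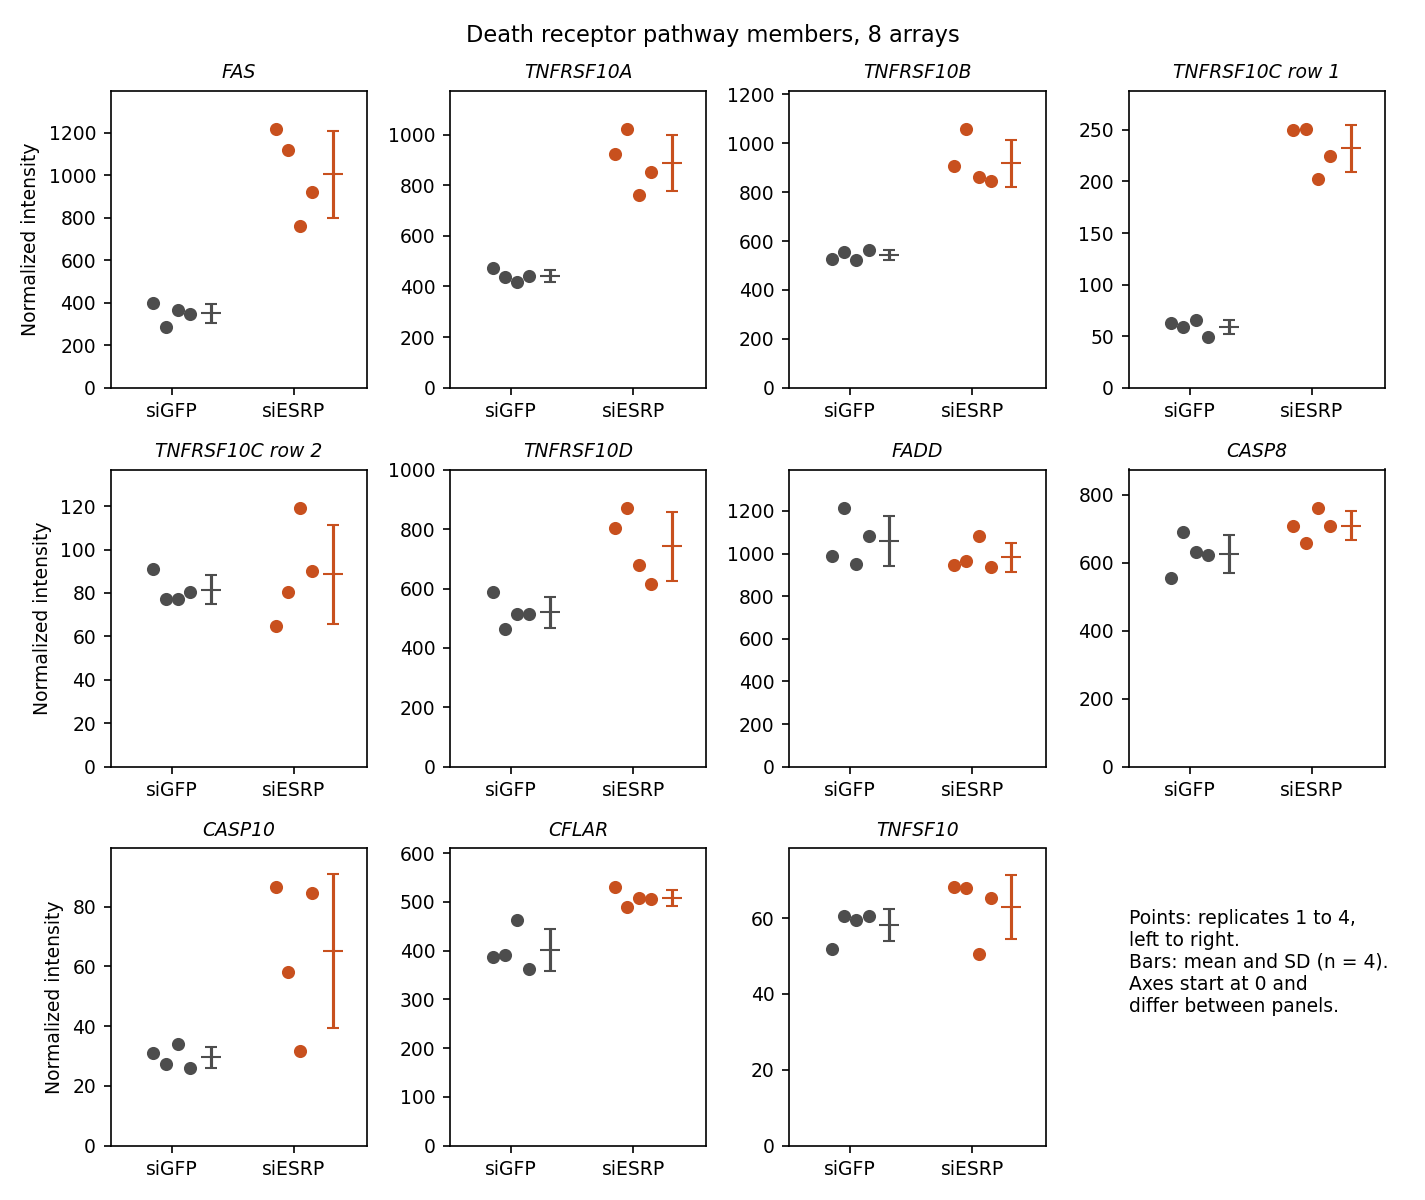
Normalized intensity (vertical axes, from 0, in arbitrary units) of the 11 member rows on the 4 siGFP and 4 siESRP arrays, with the mean and SD of each group beside the points. FAS, TNFRSF10A, TNFRSF10B, TNFRSF10C row 1, TNFRSF10D and CFLAR have all siESRP points above all siGFP points, while FADD, CASP8, TNFSF10, CASP10 and TNFRSF10C row 2 overlap.

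FAS encodes the receptor for FAS ligand. Its normalized intensities were 399, 287, 363 and 346 on siGFP arrays 1 to 4, and 1216, 1119, 761 and 920 on siESRP arrays 1 to 4. The lowest siESRP array, replicate 3, still lay well above the highest siGFP array, and the siESRP arrays were spread more widely than the controls. The means were 349 ± 46.9 and 1004 ± 203 (SD, n = 4 each), a log2 difference of 1.51 ± 0.17 SE with a 95% interval of 1.11 to 1.91 (limma adjusted p = 0.00141). In the ranking of all rows by p, 3.05% had a smaller one.

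A second row is annotated to both FAS and its neighbour STAMBPL1, which encodes a deubiquitinating enzyme, and does not count as a member. It read 390, 408, 403 and 407 in siGFP and 434, 423, 357 and 349 in siESRP, with siESRP arrays on both sides of the controls. Its log2 difference was −0.05 (95% interval −0.24 to 0.15, limma adjusted p = 0.745). Within each array, the log2 ratio of the FAS row to this shared row ran from −0.51 to 0.03 in siGFP and from 1.09 to 1.48 in siESRP. The difference of 1.56 is given as a description, with no test, because this pair was chosen after its values were seen. Which parts of FAS the shared row covers is not given in the sources used here.

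TNFRSF10A encodes DR4, a receptor that carries the death signal of TRAIL. It measured 474, 439, 417 and 440 in siGFP and 924, 1022, 760 and 852 in siESRP. The groups were separated by a wide gap, and the siGFP arrays lay close together. The log2 difference was 1.00 ± 0.10 SE (95% interval 0.77 to 1.22, limma adjusted p = 0.000715), from means of 443 ± 23.5 to 889 ± 111 (SD, n = 4 each).

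TNFRSF10B encodes DR5, the other death-signalling TRAIL receptor. Its values were 526, 554, 521 and 563 in siGFP and 907, 1058, 860 and 847 in siESRP. All siESRP arrays were again above all controls, with replicate 2 the highest. The means rose from 541 ± 20.6 to 918 ± 96.6 (SD, n = 4 each), a log2 difference of 0.76 ± 0.08 SE (95% interval 0.57 to 0.94, limma adjusted p = 0.00100).

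TNFRSF10C encodes DcR1, a decoy held at the membrane by a lipid anchor, with no cytoplasmic death domain. Its first row was low in control cells, at 62.5, 58.5, 65.5 and 48.9, and reached 250, 251, 203 and 225 in siESRP. The siESRP arrays were close to each other and far above the controls. The means of 58.8 ± 7.24 and 232 ± 23.0 (SD, n = 4 each) gave a log2 difference of 1.96 ± 0.11 SE (95% interval 1.70 to 2.23, limma adjusted p = 0.000116). Of all rows, 0.357% had a smaller p.

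The second TNFRSF10C row gave another picture. It read 91.1, 77.0, 77.0 and 80.4 in siGFP and 64.6, 80.6, 119 and 90.1 in siESRP, so the siESRP arrays fell on both sides of the controls. Its log2 difference was 0.09 (95% interval −0.33 to 0.51, limma adjusted p = 0.785). The log2 ratio of the first row to the second ran from −0.71 to −0.23 in siGFP and from 0.76 to 1.94 in siESRP, a difference of 1.87, given with no test for the same reason. With a pseudocount of 16 the log2 difference of the first row was 1.73, since its control level is low. With the log2 values of both rows averaged, TNFRSF10C had a log2 difference of 1.03 ± 0.08 SE (limma adjusted p = 0.000353). That average joins a row that rose with a row that did not pass, so it does not show a rise in both. Its SE was below that of the first row (0.11) and of the second (0.18). The TRAIL receptor genes are close paralogues, and whether their probes cross-hybridize was not tested.

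**Figure D2:**
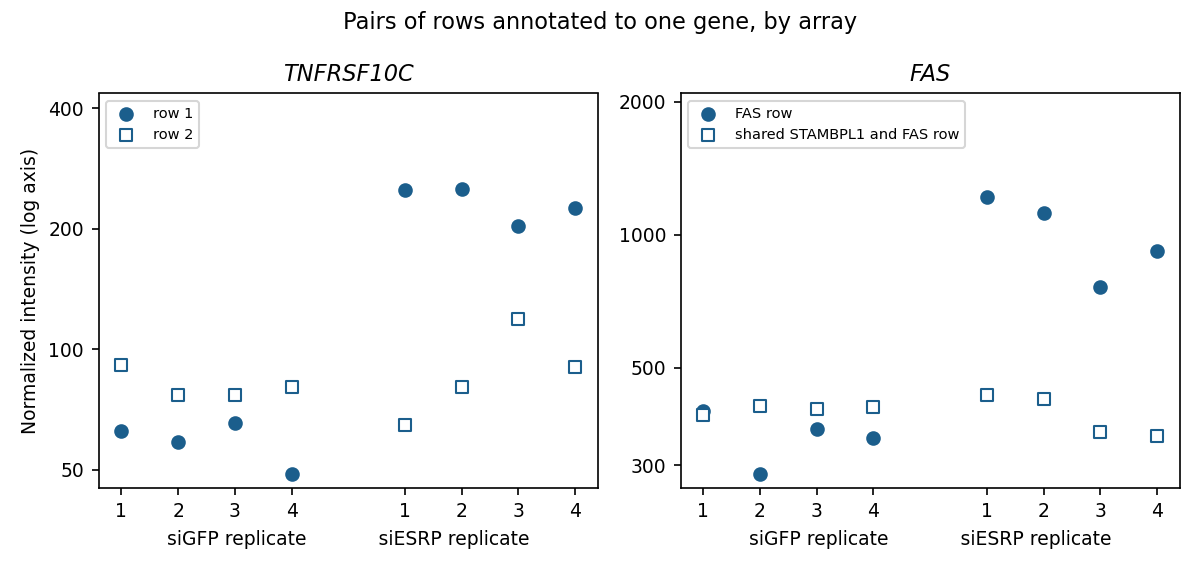
Normalized intensity (log axes, arbitrary units) by array for both TNFRSF10C rows (left) and for the FAS row with the row shared by STAMBPL1 and FAS (right). The filled points separate the groups, from at most 65.5 to at least 203 for TNFRSF10C row 1 and from at most 399 to at least 761 for FAS, while the open squares overlap between the groups.

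TNFRSF10D encodes DcR2, a decoy with a truncated death domain. It measured 589, 463, 513 and 515 in siGFP and 803, 870, 680 and 615 in siESRP. The groups did not overlap, but siESRP replicate 4 was only slightly above siGFP replicate 1. The log2 difference of 0.50 ± 0.13 SE (95% interval 0.21 to 0.80) passed narrowly (limma adjusted p = 0.0314). The call ended when siGFP replicate 2, 3 or 4 or siESRP replicate 1 or 2 was left out (adjusted p 0.0647 to 0.0836), on the deposited scale (0.117) and after median scaling (0.0669).

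By position, TNFRSF10B, TNFRSF10C, TNFRSF10D and TNFRSF10A are consecutive protein-coding genes in that order (RefSeq, GRCh38.p14). Among the 5 protein-coding genes on each side of this cluster, 9 of 10 had a row, of which 2 rose and 1 fell. Of all rows, 10.9% rose and 9.31% fell. LOXL2, a lysyl oxidase that crosslinks matrix, rose from 1331 ± 51.5 to 1919 ± 199 and the nucleotide phosphatase gene ENTPD4 from 796 ± 123 to 1153 ± 114 (SD, n = 4 each, limma adjusted p = 0.00483 and 0.0217). RHOBTB2, which lies next to TNFRSF10B, fell from 372 ± 29.6 to 299 ± 22.2 (limma adjusted p = 0.0316), and CHMP7, next to TNFRSF10A, did not pass (log2 difference −0.09). Inside the cluster all 4 genes rose, TNFRSF10C in the first of its 2 rows and not in the second.

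FADD, the adaptor shared by these receptors, did not pass. Its intensities were 991, 1213, 953 and 1081 in siGFP and 944, 964, 1082 and 937 in siESRP, and the groups overlapped. The log2 difference was −0.11 with a 95% interval of −0.32 to 0.10 (limma adjusted p = 0.474).

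CASP8 encodes caspase-8, the main initiator caspase of this pathway. It measured 556, 691, 633 and 625 in siGFP and 710, 658, 761 and 710 in siESRP. Most siESRP arrays were higher, but replicate 2 lay below siGFP replicate 2. The log2 difference was 0.18, with a 95% interval of 0.00 to 0.36, and did not pass (limma adjusted p = 0.152).

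CASP10, the gene of the related initiator caspase-10, was read at low intensity. It was 30.9, 27.4, 34.0 and 26.0 in siGFP and 86.5, 58.1, 31.8 and 84.4 in siESRP. In siESRP, 3 arrays were above all controls, and replicate 3 lay within the control range. The means were 29.6 ± 3.60 and 65.2 ± 25.8 (SD, n = 4 each), and no fold is given because the control mean is under 50. The difference did not pass (limma adjusted p = 0.0636), and it did when siESRP replicate 3 was left out (adjusted p = 0.00476). The deposited values, 38, 27, 30 and 31 in siGFP and 73, 47, 41 and 81 in siESRP, did not overlap. On that scale the difference did not pass either (limma adjusted p = 0.0675).

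CFLAR encodes cFLIP, a caspase-8 relative without protease activity. It measured 387, 391, 462 and 363 in siGFP and 530, 490, 507 and 506 in siESRP. The siESRP arrays were tightly grouped just above siGFP replicate 3. The log2 difference was 0.35 ± 0.08 SE (95% interval 0.16 to 0.53, limma adjusted p = 0.0207). The call ended without siGFP replicate 1 or 2 or siESRP replicate 1 or 4 (adjusted p 0.0517 to 0.0615), on the deposited scale (0.166) and after median scaling (0.0675).

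Because cFLIP and caspase-8 compete for the same complex, their rows were set against each other within arrays. The log2 ratio of CFLAR to CASP8 ran from −0.82 to −0.45 in siGFP and from −0.58 to −0.42 in siESRP. These ranges overlap, and the difference of 0.17 did not pass (exact two-sided permutation p = 0.200, adjusted p = 0.200 over 3 row pairs computed). CFLAR, CASP10 and CASP8 also lie side by side in that order. Of the 10 genes flanking them, 5 on each side and all measured, 2 rose and 1 fell. Around FAS, 5 of the 10 flanking genes had a row, of which 2 rose and 2 fell. The shares over all rows were 10.9% higher and 9.31% lower, and whether flanking genes differ from these was not tested. ANKRD22 and the lysosomal lipase gene LIPA rose (log2 differences 0.83 and 0.40, limma adjusted p = 0.00611 and 0.0215), and the interferon-induced genes IFIT2 and IFIT3 fell (−0.34 and −0.35, limma adjusted p = 0.0271 and 0.00712).

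TNFSF10 encodes TRAIL itself. Its values were 51.8, 60.6, 59.5 and 60.5 in siGFP and 68.1, 67.9, 50.5 and 65.4 in siESRP. In siESRP, 3 arrays lay above the controls and replicate 3 lay below them. The log2 difference was 0.11 (95% interval −0.15 to 0.37, limma adjusted p = 0.563), and its sign turned on the deposited scale (−0.05) and after median scaling (−0.06). The deposited values were 63, 60, 54 and 67 in siGFP and 55, 56, 64 and 61 in siESRP. Replicate 3 was the highest siESRP array among them.

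**Figure D3:**
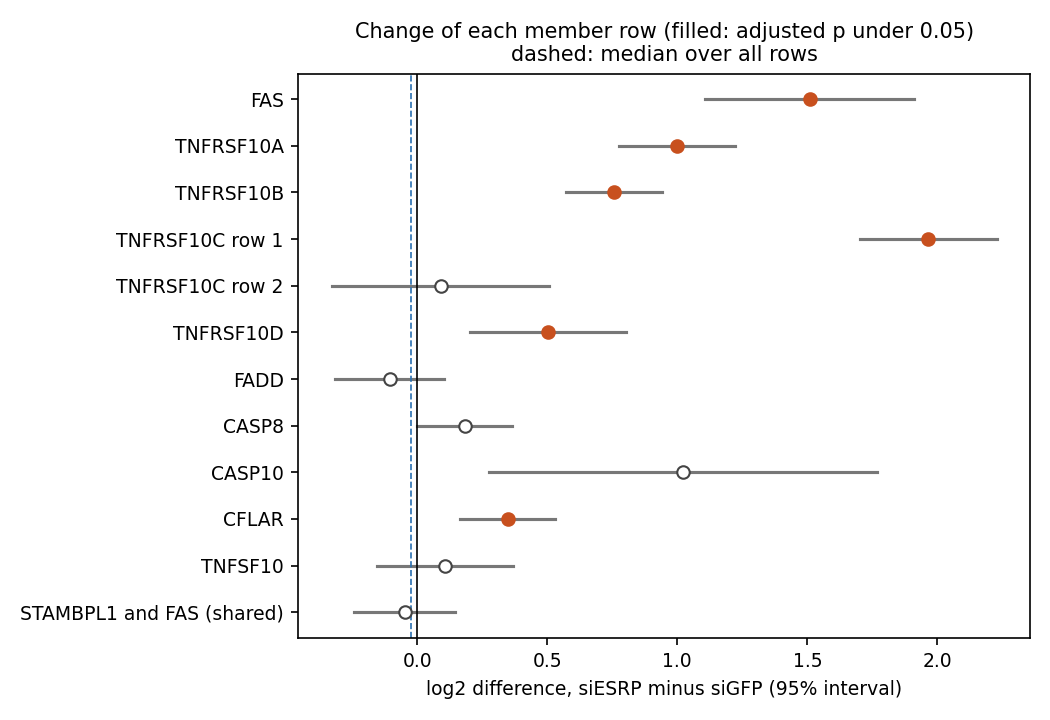
Log2 difference, siESRP minus siGFP, with its 95% interval for each member row and for the row shared by STAMBPL1 and FAS. Filled points passed the limma threshold; the death receptor rows lie from 0.50 (TNFRSF10D) to 1.96 (TNFRSF10C row 1), except TNFRSF10C row 2 at 0.09, and the dashed line marks the median of all rows at −0.02.

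Among the siESRP arrays, replicate 3 was the lowest for FAS, TNFRSF10A, TNFRSF10C row 1, CASP10 and TNFSF10, and the highest for FADD, CASP8 and TNFRSF10C row 2, in normalized values. For TNFSF10, FADD and CASP8 this order depended on the normalization. In the deposited values replicate 3 was the highest for TNFSF10, and replicate 1 was the highest for FADD (1011 against 994 in replicate 3) and CASP8 (759 against 704). Replicate 3 also had the highest normalized ESRP1 value of its group, 660, against 499 to 599 on the other 3. Its value in the row of ESRP2 and NFATC3 was the lowest, 109, against 151 to 171. Without it, FAS and the other 5 called rows stayed called and CASP10 was added, 7 rows in all.

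Other genes of the pathway, taken from a list of 47, went both ways. Of the 40 with a row of their own, 6 rose and 4 fell, and 20.2% of all rows passed in either direction. The 40 had a median log2 difference of −0.10. The others on the list were not analysed here.

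Among 4 other ligands only TNFSF15, which encodes the DR3 ligand TL1A, passed. It was 279, 228, 273 and 315 in siGFP and 654, 656, 477 and 579 in siESRP, with a clear gap between the groups (log2 difference 1.11 ± 0.14 SE, limma adjusted p = 0.00201). FASLG, the gene of FAS ligand, had a log2 difference of −0.49 (95% interval −1.06 to 0.08, adjusted p = 0.208). Of 5 other receptors, TNFRSF1A, the death-domain receptor for TNF, rose 1.30-fold, its means being 1549 ± 144 and 2015 ± 201 (SD, n = 4 each, limma adjusted p = 0.0306). That call ended without siGFP replicate 1, 2 or 3 or siESRP replicate 1, 2 or 4 (adjusted p 0.0560 to 0.0723) and on the deposited scale (0.0633). TNFRSF11B, the gene of the soluble TRAIL decoy osteoprotegerin, did not pass (log2 difference −0.06).

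Of 11 adaptors, ubiquitin ligases and deubiquitinases, 1 rose and 3 fell. PIDD1, a death-domain protein that activates caspase-2 and is known as a p53 target, rose 1.58-fold, with means of 285 ± 19.8 and 451 ± 36.2 (SD, n = 4 each, limma adjusted p = 0.00157). TRADD, the adaptor of TNF receptor 1, fell from 532 ± 60.9 to 353 ± 45.9 (log2 difference −0.59 ± 0.12 SE, adjusted p = 0.0127; 0.0754 on the deposited scale). SHARPIN, a subunit of the linear ubiquitin ligase, fell from 1291 ± 70.7 to 1048 ± 78.1 (adjusted p = 0.0215), and TNFAIP3, the NF-kappaB inhibitor A20, from 1148 ± 6.01 to 1043 ± 5.11 (adjusted p = 0.0197). The SHARPIN call ended without siGFP replicate 1, 2 or 4 or siESRP replicate 1 or 4 (0.0534 to 0.0599) and on the deposited scale (0.102). The TNFAIP3 call ended without siESRP replicate 1 or 4 (0.0614 and 0.0517), on the deposited scale (0.466), after median scaling (0.152), without the dimmest 25% of rows (0.141) and with trended and robust eBayes (0.108).

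None of the 3 measured caspases CASP2, CASP6 and CASP9 did by limma's adjusted p, with log2 differences of −0.16, 0.24 and −0.08, and none had an unadjusted p under 0.05. Of 5 genes linking to mitochondria, DIABLO, which encodes the IAP antagonist Smac, rose 1.27-fold (adjusted p = 0.0133; 0.108 on the deposited scale), while BID, the caspase-8 substrate that carries the signal to mitochondria, did not pass (log2 difference −0.18). Of 6 inhibitors, BIRC5, which encodes survivin and is a mitotic gene, fell from 1725 ± 96.4 to 1298 ± 121 in the brighter of its 2 rows (SD, n = 4 each, adjusted p = 0.0117; 0.0927 on the deposited scale). Its other row averaged 15.7 and 18.4 and did not pass.

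Of 3 necroptosis genes, MLKL, the membrane-permeabilizing effector, rose 1.51-fold from 243 ± 22.0 to 370 ± 52.1 (SD, n = 4 each, limma adjusted p = 0.0129; 0.0531 on the deposited scale). RIPK3, the kinase that activates MLKL, averaged only 10.7 and 13.1. Of 3 caspase substrates and nuclease genes, PARP1, a DNA-damage sensor cleaved during apoptosis, rose 1.58-fold from 1308 ± 85.1 to 2066 ± 87.1 (adjusted p = 0.000604).

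**Figure D4:**
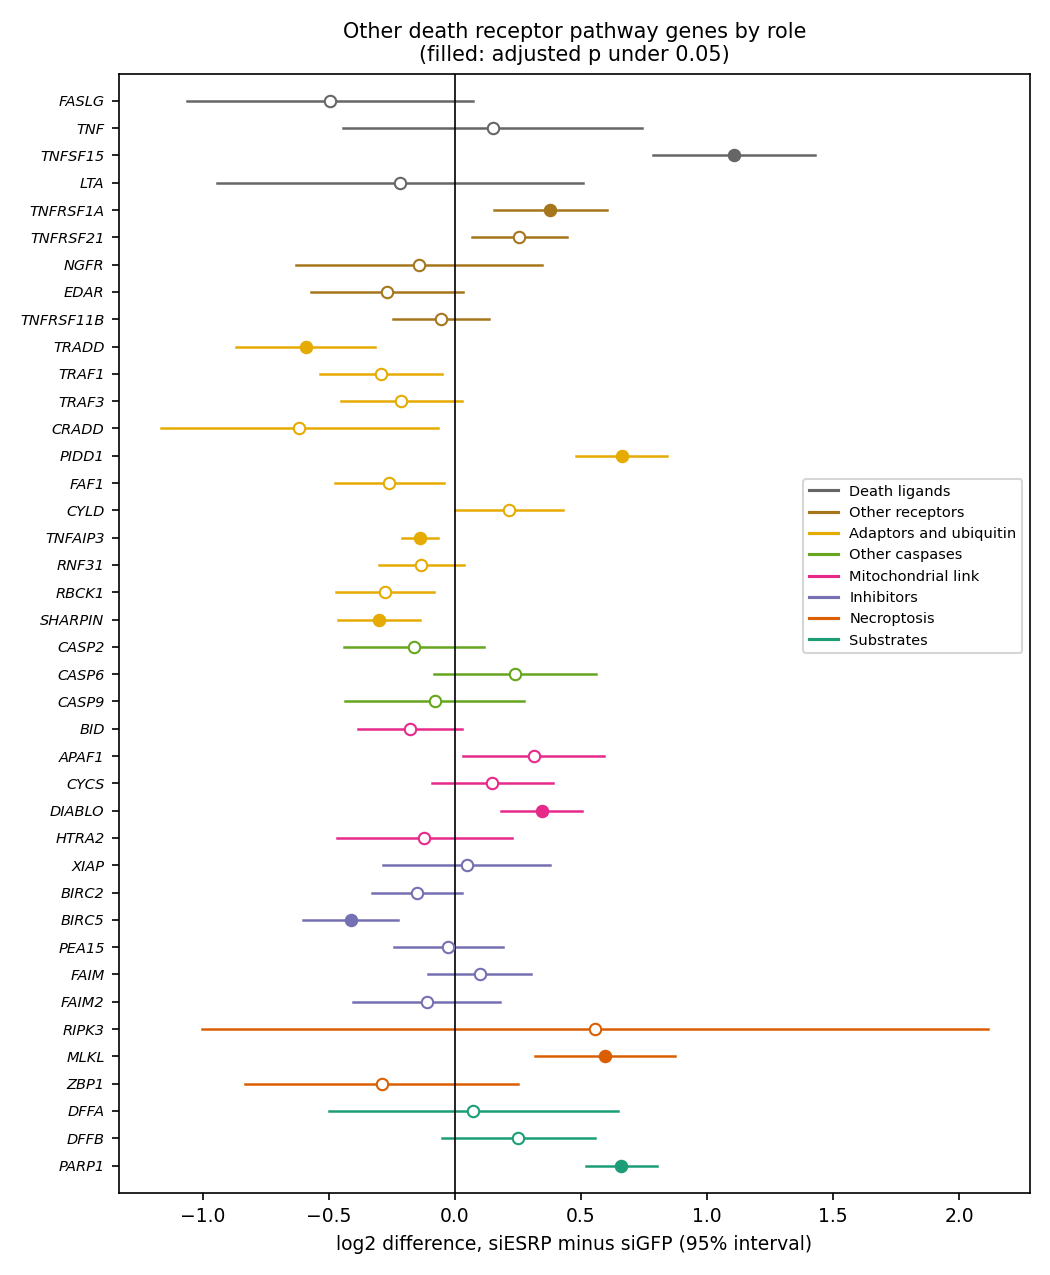
Log2 difference, siESRP minus siGFP, with its 95% interval for the 40 other pathway genes, coloured by role, filled where the limma adjusted p was under 0.05. TNFSF15, PIDD1, PARP1, MLKL, TNFRSF1A and DIABLO lie to the right of 0, and TRADD, BIRC5, SHARPIN and TNFAIP3 to the left.

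FAS, CASP8 and CFLAR are known to be spliced into isoforms of different function. The gene-level rows do not measure isoforms, and whether changed exon use moved any of these rows was not tested.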

How the data were processed

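The authors deposited 1 table of linear intensity values, whole numbers for 18495 gene-level rows on 8 arrays, of which 2.70% to 4.02% per array lie below 0. The sources used here do not give the background correction, probe summary, scaling or genome build. Because log2 medians differed by 0.29 between arrays, linear intensities were brought to common quantiles, negative results were floored at 0, and log2(value + 1) was tested with limma 3.58.1 in R 4.3.3 (lmFit and eBayes, no covariate, two-sided, Benjamini-Hochberg over all 18495 rows, threshold 0.05). Folds are on that log2(value + 1) scale and understate changes of dim rows.

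Symbols came from the platform annotation, 14579 rows having 1 symbol, 2847 several and 1069 none, and 14552 matched a RefSeq gene (GRCh38.p14). All members are named, and other pathway genes where they passed the test; the remaining names are examples chosen after their values were seen. Among several rows of a gene outside the set, the one with the highest mean was used. Members and lists were chosen with earlier results of these data known. The fit, tested on simulated data of 18495 rows, found 46 of 100 simulated 1.5-fold changes and 92 of 100 simulated 2-fold changes, with 10 false calls. Only 200 rows, each with a mean of at least 100, were changed, and both groups were given the siGFP spread. In the data 20.2% of rows were called, so these recovery rates do not carry over to it directly.

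Alternatives were the deposited scale, scaling to the median, omission of the 25% dimmest rows, adding 16 before the log2, eBayes with trend and robust settings, limma array weights, a replicate block, a threshold of 0.01, a 1.5-fold minimum, the ratio of group means, averaging the rows of a gene, and omission of each array in turn.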

Additional observations from a re-analysis of the deposited data

Results flagged for a closer look

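Within the 4 arrays of a group, 1 array stood apart from the other 3 for TNFSF10 in both groups after normalization. In siGFP replicate 1 was low (51.8, gap over range 0.873) and in siESRP replicate 3 was low (50.5, gap over range 0.844), both above Dixon's 95% critical value for 4 samples. Of 22 groups of values tested these were 2, where chance flags about 1 in 20, or 1.1. The deposited TNFSF10 values did not show these low arrays. There siGFP replicate 1 read 63, above replicate 3 at 54, and siESRP replicate 3 was the highest of its group at 64.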

How the results depend on the processing

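FAS, TNFRSF10A, TNFRSF10B and TNFRSF10C row 1 were called higher in all 17 alternative fits, with log2 differences of 1.40 to 1.65, 0.93 to 1.08, 0.69 to 0.79 and 1.73 to 2.07. TNFRSF10D was called in 7 of 17 and CFLAR in 8 of 17. CASP10 was called in 4 of 16, namely with median scaling (adjusted p = 0.0396), trended and robust eBayes (0.0282), array weights (0.0146) and without siESRP replicate 3; it was among the rows left out as dimmest. No called member or pathway gene turned direction in the alternatives run. Leaving out 1 array gave 4 to 7 called member rows; the number of other pathway genes ran from 7 to 10 and of all rows from 2719 to 3793, while both knockdown targets stayed called. All rows called numbered 3729, and 1673 on the deposited scale, 2292 with the replicate block, 1808 at adjusted p under 0.01 and 1309 with at least 1.5-fold. Other pathway genes called numbered 10, and 4, 6, 3 and 5 in the same settings. The cause of the drop on the deposited scale was not tested. The median log2 difference of all rows was −0.02, with −0.10 for deposited and −0.11 for median-scaled values.

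Same-numbered arrays had correlations of deviations from −0.27 to 0.15 over 11852 rows, and 1 of 4 siGFP arrays correlated best with its own number. With 4 arrays per group this cannot decide whether same-numbered samples were handled together, and the labels do not say. With the replicate block, TNFRSF10D (limma adjusted p = 0.0850) and CFLAR (0.0679) were not called among the members, which left 4. Of the other pathway genes, the block also ended the calls of TNFRSF1A (0.0576), SHARPIN (0.0611), TNFAIP3 (0.114) and MLKL (0.0516), which left 6. Low signal limits CASP10, TNFSF10 and, in control cells, both TNFRSF10C rows, whose folds depend on the pseudocount.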
